A study of Mus musculus with 8 samples.

Results

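Apoptotic cells in a healing wound are removed by phagocytes through receptors that read phosphatidylserine on the dying cell, either directly or through a soluble bridge. The transcripts of 8 genes of this system were followed here: the receptors Mertk, Axl, Stab1 and Timd4, the integrin chain Itgav, and the bridging molecules Gas6, Pros1 and Mfge8. The genes were chosen by name, and all 8 were found among the 21755 genes named in the count tables and were listed in each of the 8 libraries. They gave 1164 UMIs (unique molecular identifiers, counted as captured transcripts) for Timd4 to 33737 for Stab1 in the cells kept.

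CD45+ cells were collected from skin wounds of male C57BL/6J mice on days 1, 3, 5 and 7. The diabetic group had received streptozotocin at 120 mg/kg at 4 weeks of age, an agent that destroys insulin-producing beta cells, and mice were used once their blood glucose had passed the level the submitters set. The control group carried wounds without that treatment, no gene was altered in either group, and the mice of a group and day were pooled. This gave 1 library for each group and day, so that a difference on 1 day had no replicate and the 4 days were the only repeats of the contrast. P-values measure the spread between these 8 libraries. Ptprc, which encodes CD45, stood at 532 to 922 CPM (counts-per-million, with UMIs as the counts) in the libraries. With no cells lacking CD45 for comparison, this level cannot show how pure the sort was.

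Of 38959 barcodes, 35158 were kept as cells, with 18814802 to 32956113 UMIs in a library. The control library of day 5 stood apart. It lost 28.6% of its barcodes to the filters, against 1.00% to 10.8% in the others, and its cells had a median of 8234 UMIs, against 2575 to 5219. The test estimates of the 8 genes that rest on it are mostly also given without it or without day 5, whereas the counts within macrophage-like clusters and the results of the longer gene lists are given with it only.

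As background, Mertk and Axl are receptor tyrosine kinases of the TAM family. Their ligands Gas6 and protein S, the product of Pros1, hold phosphatidylserine at one end and the receptor at the other. Mfge8 works in the same way between phosphatidylserine and integrins that contain the alpha v chain, which Itgav encodes. Stab1 is a large scavenger receptor and Timd4 a tethering receptor, and both bind phosphatidylserine themselves. Mertk and Timd4 are best known from resident and alternatively activated macrophages, and Axl from inflamed tissue and dendritic cells.

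The genes lie apart in the genome (GRCm38, GENCODE M21): Mertk at chr2:128698956-128802894 on the plus strand, Axl at chr7:25757273-25788705 on the minus strand, Stab1 at chr14:31139013-31168641 on the minus strand, Timd4 at chr11:46810800-46844332 on the plus strand and Itgav at chr2:83724397-83806916 on the plus strand. Of the bridging molecules, Gas6 lies at chr8:13465374-13494490 on the minus strand, Pros1 at chr16:62854307-62929346 on the plus strand and Mfge8 at chr7:79133768-79149060 on the minus strand. Mertk, Gas6, Stab1 and Itgav overlap a gene on the opposite strand (Gm14011, Tmem255b, Nt5dc2, and Gm13684 with Dnmt3l-ps1), and Mertk also overlaps Gm23172 on its own strand. Whether the counting used strand is not given in the sources used here.

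The sequences at the start sites are shown for Mertk, Gas6 and Stab1, whose levels followed each other most closely across cell classes, and for Timd4, which had a different pattern. Each is a window of 300 bases around the annotated start, written 5′ to 3′ on the strand of the gene, from RefSeq on GRCm38.p6, and all 8 genes had an entry. The windows lie at chr2:128698665-128698964 (Mertk, plus), chr8:13494486-13494785 (Gas6, minus), chr14:31168592-31168891 (Stab1, minus) and chr11:46810549-46810848 (Timd4, plus). Capitals mark matches on either strand to TGAGTCA (AP-1), GAGGAAGT (PU.1) and AGGTCA (a half-site that LXR shares with other nuclear receptors).
Mertk: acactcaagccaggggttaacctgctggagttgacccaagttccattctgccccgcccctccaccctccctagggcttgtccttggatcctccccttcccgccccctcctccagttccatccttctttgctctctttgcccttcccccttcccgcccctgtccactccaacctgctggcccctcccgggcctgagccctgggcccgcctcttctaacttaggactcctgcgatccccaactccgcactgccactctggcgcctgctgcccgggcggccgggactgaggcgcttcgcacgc
Gas6: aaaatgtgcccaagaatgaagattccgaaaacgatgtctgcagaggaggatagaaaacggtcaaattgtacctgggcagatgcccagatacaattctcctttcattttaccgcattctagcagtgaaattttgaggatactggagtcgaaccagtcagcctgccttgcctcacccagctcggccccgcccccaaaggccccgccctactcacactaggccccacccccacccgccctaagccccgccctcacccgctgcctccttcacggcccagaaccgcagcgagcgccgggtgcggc
Stab1: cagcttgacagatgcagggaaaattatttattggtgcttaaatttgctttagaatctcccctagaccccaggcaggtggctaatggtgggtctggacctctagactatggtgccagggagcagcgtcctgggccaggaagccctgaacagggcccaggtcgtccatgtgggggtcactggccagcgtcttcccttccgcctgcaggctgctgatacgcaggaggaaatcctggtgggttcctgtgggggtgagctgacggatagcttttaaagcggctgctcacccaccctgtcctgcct
Timd4: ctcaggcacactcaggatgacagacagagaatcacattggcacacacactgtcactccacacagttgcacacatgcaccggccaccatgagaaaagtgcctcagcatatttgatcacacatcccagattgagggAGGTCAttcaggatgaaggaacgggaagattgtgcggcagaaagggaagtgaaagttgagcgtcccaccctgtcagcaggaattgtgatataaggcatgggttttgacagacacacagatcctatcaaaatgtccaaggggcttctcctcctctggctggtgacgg
Only the Timd4 window and the Itgav window (not shown) held a match. Timd4 had 1 half-site match and Itgav had 1 PU.1 match. The same letters occur in 16.0% and 3.28% of the 27025 windows searched, and the AP-1 letters, absent from all 8 windows, in 5.17%. CpG pairs numbered 24 at Itgav, 21 at Pros1, 17 at Gas6 and at Mfge8, 14 at Mertk, 7 at Stab1, 6 at Axl and 5 at Timd4, with a median of 7 over all windows. A match is a description of the letters only.

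Cells were assigned to classes by markers that held none of the 8 genes, and the 8 genes were left out of the clustering. The classes were neutrophil-like (13769 cells), macrophage-like (6494), monocyte-like (4634), T and NK cell-like (2998), 2 kinds of dendritic-like cells led by Cd209a (2296) and by Ccr7 (548), mast cell-like (149), osteoclast-like (375) and fibroblast-like (50). A shallow cluster of 3845 cells stayed unnamed, with a median of 864 UMIs per cell (a median of 0.249 of the library's own median) and none of the markers of its best list among its top 10 genes. The macrophage-like cells were 2.27%, 12.1%, 45.4% and 50.1% of the control cells on days 1, 3, 5 and 7, and 1.85%, 13.2%, 5.02% and 27.0% of the diabetic cells. Levels within a class are CPM of that class, given for sums of at least 20 cells.

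Mertk, Gas6 and Stab1 were genes of the macrophage-like cells, which held 29.8% of all UMIs. These cells gave 74.1% of the Mertk UMIs, 77.9% of the Gas6 UMIs and 64.8% of the Stab1 UMIs over all libraries. The shares varied with the library, from 7.83% (control day 1) to 84.4% (control day 5) for Mertk, 41.2% to 85.8% for Gas6 in the same libraries, and 8.88% (diabetic day 1) to 80.2% (control day 5) for Stab1. Among the named classes, Mertk and Stab1 had their highest level in the macrophage-like class in 8 of 8 libraries, and Gas6 in 7 of 8. The exception was control day 7, where 22 fibroblast-like cells reached 636 CPM of Gas6. The unnamed cells, left out of this ranking, had medians of 51.3 CPM for Mertk (0 to 75.5), 58.6 for Gas6 (10.4 to 133) and 261 for Stab1 (169 to 353). Mertk had a median of 77.0 CPM in macrophage-like cells (range 25.1 to 133.5 over 8 libraries) against 19.8 in monocyte-like (4.95 to 47.0) and 8.08 in neutrophil-like cells (0.144 to 63.4), so that the ranges overlapped. With each cell named on its own by its markers, the log2 ratio of macrophage-like over neutrophil-like Mertk went from 2.76 to 6.20. Gas6 was at 195 CPM (155 to 292) against 14.6 (3.23 to 86.5) and 15.9 (1.58 to 94.4), with no overlap. Stab1 was at 383 CPM (269 to 458) against 130.4 (93.5 to 228) and 47.5 (20.3 to 225), also without overlap. In dendritic-like cells all 3 genes were lower still, with medians of 3.07, 8.11 and 22.7 CPM in the Cd209a class.

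Axl, Pros1 and Itgav were spread over several classes. Axl had a median of 71.9 CPM in macrophage-like (19.3 to 101) and 81.3 CPM in monocyte-like cells (15.8 to 142), 2 levels that did not differ beyond their spread, and 41.4 CPM in Cd209a dendritic-like cells (14.1 to 87.0). Osteoclast-like cells, counted in 4 libraries, had an Axl median of 84.8 CPM (65.4 to 103). Macrophage-like and monocyte-like cells together gave most of the Axl UMIs over all libraries, 44.6% and 17.8%. The macrophage-like share ran from 4.90% in control day 1 to 68.9% in control day 7. Pros1, the gene of protein S, which also acts as a brake on clotting, was at 69.1 CPM in macrophage-like cells (43.2 to 129), 31.5 in Cd209a dendritic-like cells (24.6 to 62.3) and 30.0 in monocyte-like cells (19.3 to 47.4). The Pros1 median of osteoclast-like cells was 36.0 CPM (20.7 to 40.8, 4 libraries). Mast cell-like cells, counted in 4 libraries, had a Pros1 median of 93.7 CPM (45.2 to 179), and the fibroblast-like cells of control day 7 were at 219 CPM.

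The integrin chain Itgav was highest in osteoclast-like cells, bone-resorbing macrophage relatives that attach through alpha v integrins. In the 4 libraries with at least 20 of these cells it stood at 398 CPM (diabetic day 3), 502 (control day 3), 552 (control day 5) and 418 (control day 7), above every other class of these libraries. Its medians in monocyte-like (233), T and NK cell-like (217) and macrophage-like cells (207) lay close together, and their ranges of 119 to 289, 114 to 283 and 84.8 to 233 overlapped. Neutrophil-like cells had 80.4 CPM (44.7 to 187).

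Timd4 and Mfge8 had most of their UMIs in dendritic-like cells when all libraries were summed. The Cd209a dendritic-like cells held 9.11% of all UMIs and gave 64.0% of the Timd4 and 44.8% of the Mfge8 UMIs, and macrophage-like cells gave 16.0% and 16.4%. The macrophage-like share of the Timd4 UMIs was not even over the libraries, at 58.4% in control day 5 (66 of 113 UMIs) and 30.3% in control day 7, against 2.54% to 18.5% in the other 6. Timd4 had a median of 34.4 CPM in the Cd209a class (17.1 to 72.2) and 27.8 in the Ccr7 class (7.29 to 51.2), against 3.75 in macrophage-like (1.74 to 14.6) and 0.814 in neutrophil-like cells (0 to 4.40). It was highest in 1 of the 2 dendritic-like classes in 8 of 8 libraries. Mfge8 was at 151 CPM in the Cd209a class and 170 in the Ccr7 class, with wide ranges of 24.9 to 622 and 0 to 987. The mast cell-like class had 208 CPM of Mfge8 (153 to 304, 4 libraries) and macrophage-like cells 19.6 (11.7 to 38.9).

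**Figure D1:**
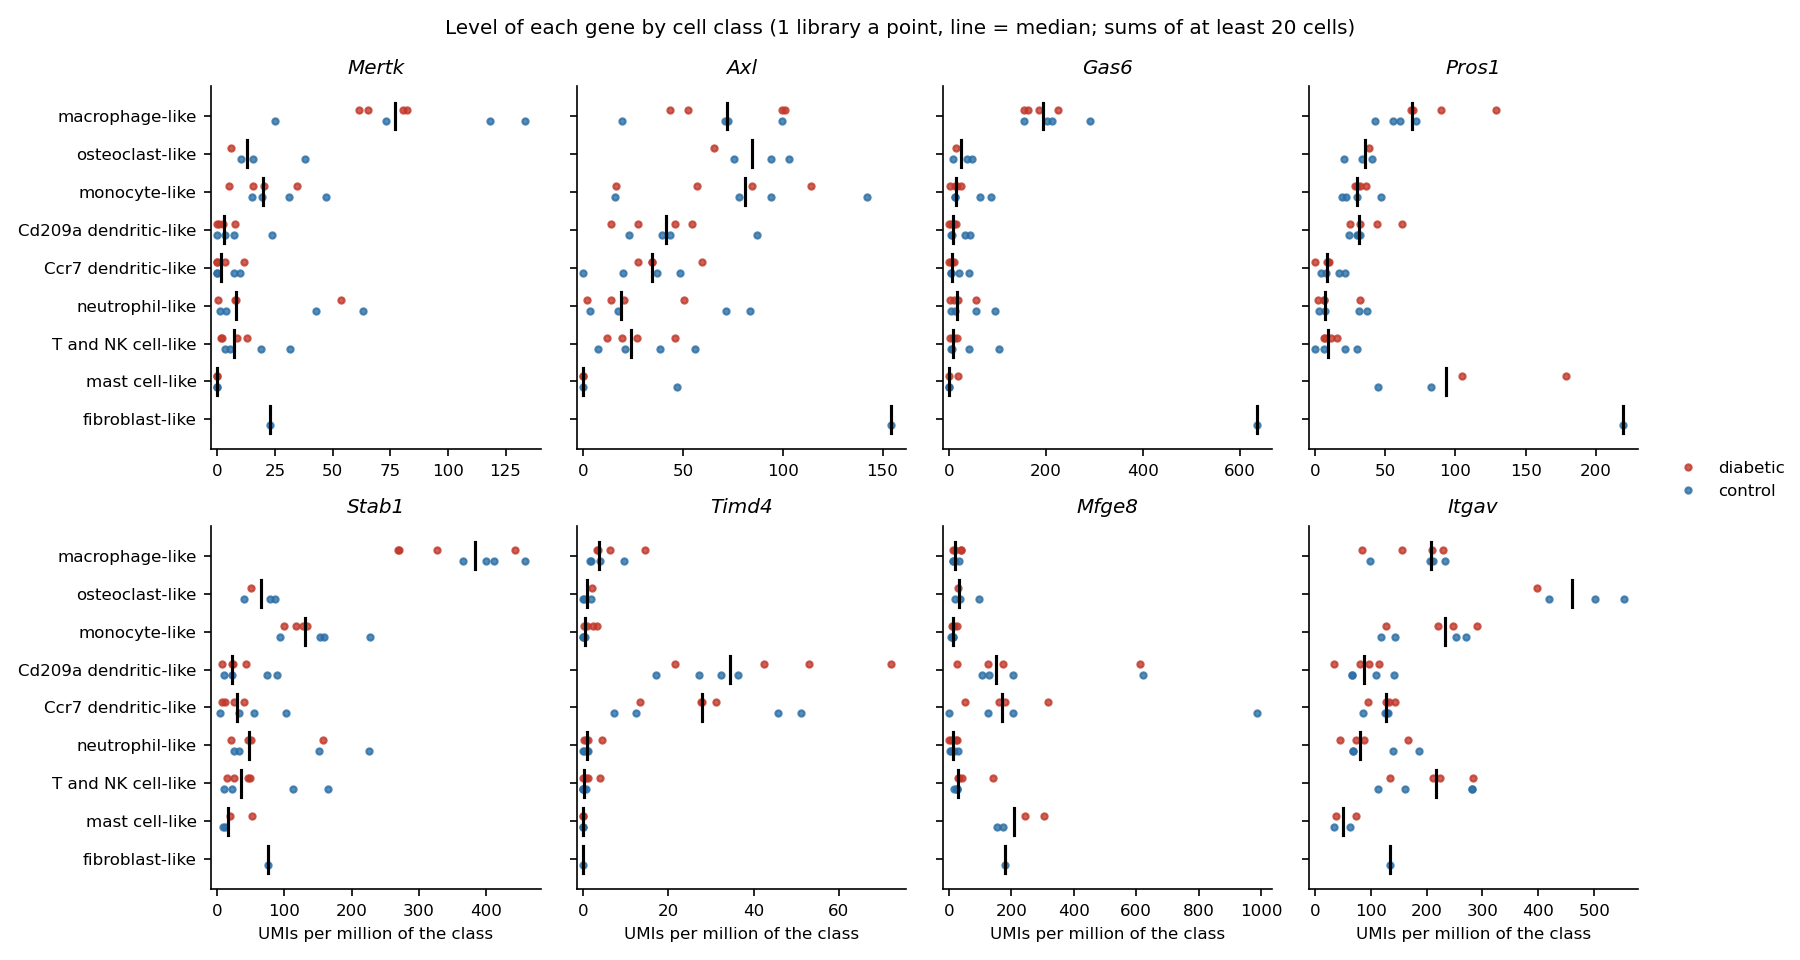
Level of each of the 8 genes in CPM of the class (horizontal axes, separate scale for each gene) in 9 cell classes; each point is 1 library with at least 20 cells of the class, red for diabetic and blue for control, and the black line is the median. Mertk, Gas6 and Stab1 lie furthest right in macrophage-like cells apart from the single fibroblast-like point, Itgav in osteoclast-like cells and Timd4 in both dendritic-like classes.

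A background level was read from the T and NK cell-like cells. After each cell was thinned to 1000 UMIs, 28.1% of 6174 macrophage-like cells had a Stab1 UMI against 4.28% of 2850 T and NK cell-like cells (71.5% against 16.8% without thinning, median depths of 8482 and 4062.5 UMIs). The same pairs were 16.3% and 1.58% for Gas6, 8.47% and 0.947% for Mertk, 7.39% and 3.16% for Axl, and 5.52% and 1.09% for Pros1. Those 5 genes were thus above the background in macrophage-like cells. Mfge8 at 2.51% and 2.56% and Itgav at 17.2% and 17.8% were not above the T and NK cell-like level. T cells are themselves known to carry alpha v, and 1 T and NK cell-like cell held 93 Mfge8 UMIs. That level therefore cannot be taken as background for these 2 genes. In thinned neutrophil-like cells the shares were lower, at 0.828% for Mfge8 and 6.33% for Itgav. Timd4 was met in 0.324% of macrophage-like cells and in 0 of the T and NK cell-like cells. At this depth a floor of 3 counts puts the latter share at up to 0.105% (exact 95% limit 0.129%). Without thinning the 2 shares were 1.68% and 0.534%. After thinning, Timd4 was also met in 2.45% of 2201 Cd209a dendritic-like cells. Shallower cells left out numbered 320 macrophage-like, 148 T and NK cell-like, 95 Cd209a dendritic-like and 723 neutrophil-like cells.

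Levels outside the macrophage-like class moved with the library. In neutrophil-like cells, Stab1 stood at 25.0, 32.4, 152 and 225 CPM in the control group on days 1, 3, 5 and 7, and at 20.3, 49.8, 45.2 and 157 CPM in the diabetic group. The log2 ratio of macrophage-like over neutrophil-like Stab1 depended on how cells were assigned, and went from 2.48 to 4.06 with each cell named on its own. Which of the 2 levels moved is not given here. Gas6 in T and NK cell-like cells was at 3.74, 6.37, 104 and 40.7 CPM in the control and 1.74, 9.64, 8.72 and 15.8 CPM in the diabetic group. The high values were those of the libraries with many macrophage-like cells, and their part in the levels below was not tested.

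In whole libraries, the question was how the clearance genes followed the wound over time and whether the diabetic wound differed. In this summed signal, fewer cells of a type and less RNA per cell cannot be told apart. Mertk went from 8.82 CPM on day 1 through 26.3 and 79.0 to 95.6 CPM on day 7 in the control group, while the diabetic libraries had 3.62, 31.95, 13.3 and 42.2 CPM. Gas6 was at 14.2, 48.6, 192 and 156 CPM in the control and 6.72, 50.0, 23.8 and 75.4 CPM in the diabetic group. The diabetic library had the lower level of both genes on every day but day 3. The gap was widest on day 5, with a diabetic over control ratio of 0.169 for Mertk (95% counting interval 0.149 to 0.191) and of 0.124 for Gas6 (0.113 to 0.136).

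Stab1 stood at 102, 141, 322 and 307 CPM in the control group and at 66.2, 116, 96.5 and 148 CPM in the diabetic group, and was thus lower in the diabetic library on 4 of 4 days (ratios 0.646, 0.825, 0.299 and 0.482). Timd4 had the opposite order. Its control levels were 1.44, 5.67, 3.84 and 3.70 CPM and its diabetic levels 2.05, 10.7, 11.0 and 11.6 CPM. The diabetic library was the higher one on 4 of 4 days, with ratios of 1.43 (0.852 to 2.42), 1.89, 2.87 and 3.14 (2.52 to 3.93), and the interval of day 1 included 1.

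Axl, the receptor linked to inflammation, rose with the days in both groups, from 10.8 through 52.1 and 78.0 to 85.7 CPM in the control and from 13.5 through 36.5 and 58.6 to 76.6 CPM in the diabetic group. The 2 groups ran close together, with ratios between 0.700 and 1.25. Itgav had a narrower range, with 95.9, 158, 279 and 212.5 CPM in the control and 90.1, 152, 167 and 204 CPM in the diabetic group, and its lowest value on day 1 in both.

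Pros1 and Mfge8 had no common order of the groups. Pros1 was at 13.6, 29.8, 56.6 and 51.6 CPM in the control and 22.9, 40.4, 21.4 and 42.2 CPM in the diabetic group, higher in the diabetic library on days 1 and 3 and lower on days 5 and 7. Mfge8 was at 11.7, 51.3, 64.5 and 35.2 CPM in the control and 10.9, 106, 39.9 and 66.9 CPM in the diabetic group, and the diabetic library was the higher one on days 3 and 7.

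**Figure D2:**
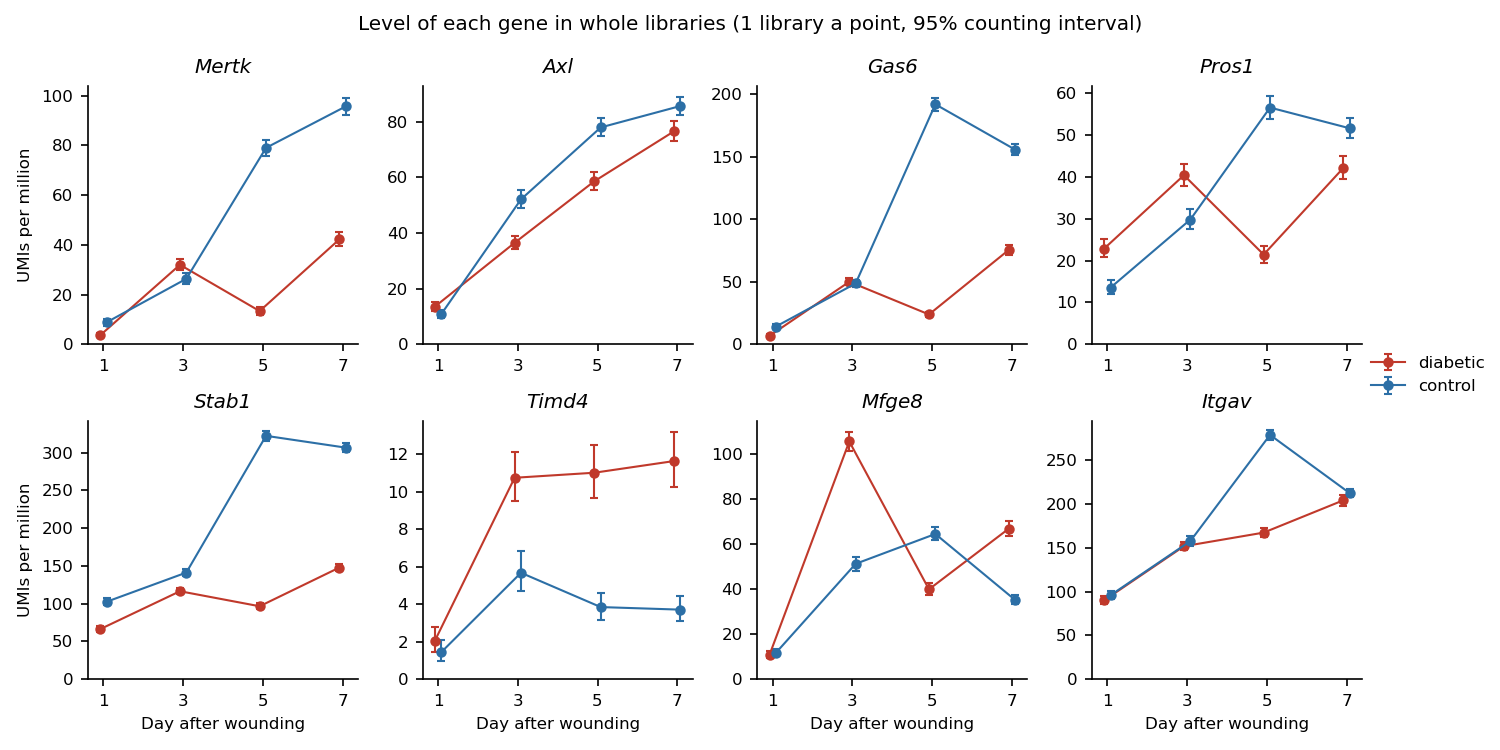
Level of each gene in whole libraries in CPM (vertical axes from 0, separate scale for each gene) against the day after wounding; each point is 1 library, red diabetic and blue control, with its 95% counting interval. The control lines of Mertk, Gas6 and Stab1 pull away from the diabetic lines on days 5 and 7, the red line of Timd4 lies above the blue one on all 4 days, and both lines of Axl climb together.

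Tested over the 4 days with day as a block, 0 of the 8 genes passed between the groups (edgeR quasi-likelihood test, Benjamini-Hochberg adjusted p of 0.05). All 8 passed the filter on low counts. Over all genes 0 of 13857 passed (0.0%), although 1518 had an unadjusted p under 0.05, and DESeq2 called 76 genes with Timd4 as the only one of the 8. The estimates were -1.16 (log2, diabetic over control, SE 0.42, adjusted p 0.451) for Mertk, -1.22 (SE 0.45, adjusted p 0.451) for Gas6, -0.89 (SE 0.23, adjusted p 0.451) for Stab1 and 1.22 (SE 0.26, adjusted p 0.451) for Timd4. These 4 genes had an unadjusted p under 0.05 by edgeR. The estimates of the other 4 genes were between -0.20 and 0.34. The median of the 8 was -0.18, and that of all genes tested was -0.0041. Without day 5, and with it the library that stood apart, 0 of the 8 genes passed, and the estimates were -0.69 for Mertk, -0.68 for Gas6, -0.65 for Stab1, 1.09 for Timd4 and 0.29 for Pros1, the last of which was -0.09 with day 5.

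Cell class composition moved with these values. The 11 macrophage markers, all detected, summed to 2892 to 15422 CPM in the control and 2361 to 9626 CPM in the diabetic libraries, and the control values of days 5 and 7 were above every diabetic one. The 8 markers of Cd209a dendritic-like cells, all detected, summed to 2771 to 14289 and 4352 to 19250 CPM, and those cells were 1.90%, 7.16%, 4.41% and 5.59% of the control and 3.83%, 7.06%, 9.73% and 13.5% of the diabetic cells. Their part in the result was not tested.

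Over the days, Axl was the 1 of the 8 genes that passed, rising by 0.35 per day (log2, SE 0.06, edgeR adjusted p 0.0246), about 1.28-fold a day. Among all 13332 genes tested 10.3% passed, 3.46% upwards and 6.88% downwards. Gas6 (0.45 per day, SE 0.12, adjusted p 0.0514), Mertk (0.42, SE 0.12, adjusted p 0.0512), Stab1 (0.15, adjusted p 0.0641) and Itgav (0.12, adjusted p 0.0674) came near the threshold. Pros1, Timd4 and Mfge8 had estimates of 0.13, 0.16 and 0.14 per day and adjusted p from 0.213 to 0.536. The median of the 8 was 0.15 per day and that of all genes 0.02. The count was sensitive to the libraries used: without control day 5 it was 4 (Axl, Gas6, Stab1 and Itgav), where 1621 of all genes passed against 1378 with it, and without diabetic day 1, diabetic day 7 or control day 1 it was 0. Whether the change per day differed between the groups was tested as well, and 0 of the 8 and 0 of 13857 genes (0.0%) passed, with 240 at an unadjusted p under 0.05 and 2 by DESeq2.

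Levels within macrophage-like cells are given per UMI of these cells, and whether they move with the share of such cells in a library was not tested. Mertk had ever higher levels in the control group from day to day, at 25.1, 73.3, 118 and 133.5 CPM, while the diabetic group had 61.4, 82.4, 65.3 and 80.7 CPM. The diabetic over control ratio was 2.45 on day 1 (1.17 to 5.32), 1.12 on day 3, 0.552 on day 5 (0.452 to 0.669) and 0.604 on day 7 (0.552 to 0.661). Day 1 rests on 13 and 21 Mertk UMIs in 100 control and 88 diabetic cells, and 18 of the 21 came from the 31 diabetic cells of 1 of the 3 macrophage-like clusters, led by Retnla. The ratio was 3.92 (1.29 to 15.9) there and 0.804 (0.140 to 3.22) in the cluster led by Ms4a7.

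Its ligand Gas6 was at 212, 155, 292 and 203 CPM in the control and 225, 155, 186 and 164 CPM in the diabetic group, with overlapping ranges. Day by day, the diabetic library was the higher one on day 1 and the lower one on days 5 and 7, and both stood at 155 CPM on day 3. Pros1 was at 56.0, 43.2, 72.1 and 60.6 CPM in the control and 129, 89.8, 68.2 and 70.0 CPM in the diabetic group. The diabetic library had the higher Pros1 level on days 1, 3 and 7, and the control library on day 5.

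Stab1 was at 399.6, 366, 458 and 411 CPM in the control and 328, 269, 443 and 271 CPM in the diabetic group, lower in the diabetic library on 4 of 4 days (ratios 0.820, 0.735, 0.966 and 0.659, with intervals that included 1 on days 1 and 5). Axl was at 19.3, 71.0, 72.8 and 99.8 CPM in the control and 52.7, 43.5, 101 and 99.5 CPM in the diabetic group. Both groups thus ended at one level on day 7, with a ratio of 0.997 (0.914 to 1.09). Itgav was at 98.5, 233, 205 and 211.5 CPM and at 84.8, 157, 229.9 and 209 CPM in the same order, with its lowest value on day 1 in both groups.

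Mfge8 and Timd4 were sparse here. Mfge8 was at 13.5, 12.8, 32.6 and 21.0 CPM in the control and 11.7, 38.9, 18.2 and 37.4 CPM in the diabetic group. Timd4 rested on 5 to 66 UMIs a library, at 9.65, 1.74, 3.97 and 1.90 CPM in the control and 14.6, 6.29, 3.53 and 3.38 CPM in the diabetic group.

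**Figure D3:**
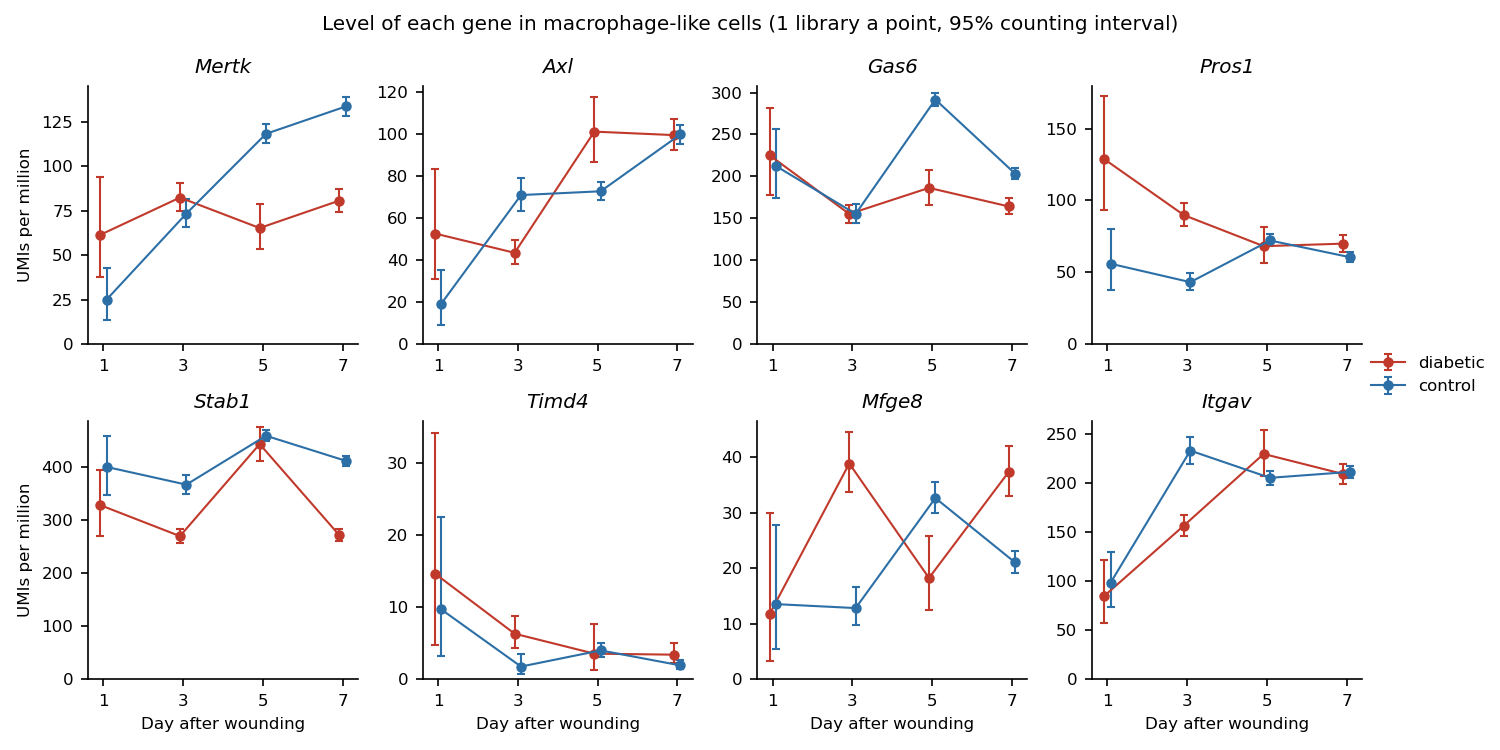
Level of each gene in macrophage-like cells in CPM of the class (vertical axes from 0, separate scale for each gene) against the day after wounding; each point is 1 library, red diabetic and blue control, with its 95% counting interval. The control line of Mertk climbs from 25.1 to 133.5 while the diabetic line stays between 61.4 and 82.4, the blue line of Stab1 lies above the red one on all 4 days, and the intervals of day 1 are wide.

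In macrophage-like cells 0 of the 8 genes passed between the groups, where 0.00914% of 10943 genes did (edgeR). The 1 gene that passed was Igha, an immunoglobulin gene, named because it was the only call. Pros1 had an estimate of 0.51 (log2, SE 0.20, adjusted p 0.499) and Stab1 one of -0.35 (SE 0.13, adjusted p 0.461), both with an unadjusted p under 0.05, as 947 of all genes had. The estimates of Mertk, Gas6 and Axl were -0.30 (SE 0.23), -0.24 (SE 0.14) and 0.05 (SE 0.22), those of Timd4 and Mfge8 were 0.82 (SE 0.43) and 0.57 (SE 0.33), and that of Itgav was -0.15 (SE 0.15). The median of the 8 was -0.05, beside -0.0074 for all genes. Without day 5, 0 of the 8 passed, and the estimates were -0.10 for Mertk, -0.10 for Gas6, -0.14 for Axl, -0.46 for Stab1, 0.72 for Pros1, 1.14 for Timd4, 1.08 for Mfge8 and -0.28 for Itgav.

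Over the days 0 of the 8 passed in macrophage-like cells, where 0.656% of 10515 genes did, 0.561% upwards and 0.0951% downwards. Axl came nearest at 0.24 per day (log2, SE 0.06, edgeR adjusted p 0.0831), and 4 of the 8, beside 1116 of all 10515 genes, had an unadjusted p under 0.05: Axl, Mertk (0.18, SE 0.06), Itgav (0.16, SE 0.05) and Timd4 (-0.27, SE 0.11). Without control day 5 the 4 estimates were 0.25, 0.18, 0.16 and -0.28 in that order, and 0 of the 8 passed. The difference in change per day between the groups had 0 of the 8 and 0 of 10943 genes past the threshold (0.0%), with 254 at an unadjusted p under 0.05 and 1 by DESeq2. Mertk had the estimate -0.30 per day (SE 0.10, unadjusted p 0.0101, adjusted p 1.00 by edgeR) and Pros1 -0.20 (SE 0.09, unadjusted p 0.0341, adjusted p 1.00). Without control day 5 these were -0.29 and -0.19.

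Markers of other cells were present in the macrophage-like sums. The 10 neutrophil markers, all detected, summed to 1097 to 3967 CPM in the control and 2009 to 4880 CPM in the diabetic group, and the 8 markers of Cd209a dendritic-like cells, most of them MHC class II genes that macrophages also express, to 5249 to 10986 and 6793 to 16376 CPM. Of the 4 Langerhans markers, 1 to 4 were detected. On days 1, 3, 5 and 7 they summed to 13.5, 7.16, 14.8 and 10.1 CPM in the control group. The diabetic sums were 11.7, 23.7, 11.8 and 20.8 CPM. These sums were higher in the diabetic library on days 3 and 7 and lower on days 1 and 5, as Mfge8 was in macrophage-like cells. The 7 fibroblast markers, of which 6 or 7 were detected, summed to 48.3, 76.4, 88.0 and 796 CPM in the control and 143, 35.9, 60.6 and 429 CPM in the diabetic group on days 1, 3, 5 and 7, and the fibroblast-like cells of control day 7 carried Gas6, Axl and Mfge8. Their part in the results was not tested.

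The macrophage-like cells fell into 3 clusters, named here by a leading gene: Igf1 (3276 cells), Ms4a7 (2154 cells, with the lipid-handling genes Gpnmb and Trem2) and Retnla (1064 cells, with Lyve1 and Cd163, markers of resident macrophages). Their mix was not the same from day to day. The Ms4a7 cluster was 61.8% to 68.7% of macrophage-like cells on days 3 and 5, and the Igf1 cluster 83.1% of the diabetic and 91.6% of the control cells on day 7. The Retnla cluster was 35.2%, 30.5%, 14.8% and 13% of the diabetic and 29.0%, 20.3%, 23.5% and 6.91% of the control macrophage-like cells on days 1, 3, 5 and 7. Its share was thus higher in the diabetic library on days 1, 3 and 7, the days on which Pros1 was higher there in macrophage-like cells, and its part in that order was not tested. Genes leading a cluster are part of how it was made, but the 8 genes were not used for it.

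The Retnla cluster was the one richest in Gas6 and Pros1. Gas6 had a median of 429 CPM there (249 to 626 over 8 libraries), against 178 (94.9 to 242) in the Ms4a7 and 155 (71.6 to 270.2) in the Igf1 cluster. Pros1 had 194 CPM (59.7 to 328) against 47.6 (40.9 to 53.9) and 47.7 (14.2 to 56.4), with no overlap. Timd4, low elsewhere among macrophage-like cells, had 24.4 CPM in the Retnla cluster (1.57 to 29.3), while Itgav was at 93.2 CPM (18.2 to 162), under its 205.5 and 217 CPM in the other clusters. Mertk ran from 27.9 to 153 CPM, within the range of the other clusters. Stab1 was lower in the diabetic library on 4 of 4 days in the Ms4a7 cluster (ratios 0.751 to 0.838). Day 1 rests there on 42 diabetic and 132 control UMIs and day 7 on 105 and 152. The 95% counting intervals of the 2 libraries overlapped on both of these days. On day 5 Stab1 was not lower in the diabetic library in the Retnla cluster (1044 against 608 CPM, ratio 1.72, 1.46 to 2.01) or in the Igf1 cluster (ratio 1.20, 0.942 to 1.53).

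Within the Retnla cluster, Pros1 stood at 97.7, 59.7, 206 and 127 CPM in the control and 182, 244, 328 and 213 CPM in the diabetic group on days 1, 3, 5 and 7. The diabetic library was higher on 4 of 4 days, and the ranges of the groups overlapped. The ratios were 1.87 (0.960 to 3.81), 4.09 (2.90 to 5.91), 1.59 and 1.68. The Pros1 estimate was 1.10 (log2, SE 0.24), and it did not pass over all genes (edgeR adjusted p 0.286), where 0.0389% of 7709 genes passed. Without day 5 it was 1.26 (adjusted p 0.236 by edgeR). In the same fit with all days, Mfge8 at 1.315 (SE 0.42, edgeR adjusted p 0.609) and Timd4 at 1.125 (SE 0.60, edgeR adjusted p 0.810) had larger estimates and did not pass either. This fit, like those of the other 2 clusters, was chosen after the values had been seen.

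Over the days, 0 of the 8 genes passed in the Retnla cluster, where 0.195% of 7174 genes did. In the other clusters 0 of the 7 genes that could be tested passed either between the groups or over the days, Timd4 being too low for a fit there. Between the groups 0.026% of 7703 genes passed in the Ms4a7 cluster, and over the days 0.134% of 5978 in the Igf1 cluster. Among the 3 clusters, Gas6 had its largest group estimate in the Igf1 cluster, at -0.99 (log2, SE 0.27, edgeR adjusted p 0.424; 0.0669% of 5978 genes passed), where it stood at 180, 270.2 and 191 CPM in the control and 71.6, 107 and 130.0 CPM in the diabetic group on days 3, 5 and 7. The diabetic Gas6 sums of days 3 and 5 rest on 17 and 15 UMIs. Without day 5 the estimate was -0.79 (edgeR adjusted p 0.783). Over the days, and among the 3 clusters, Mertk had its largest estimate in the Ms4a7 cluster, at 0.28 per day (SE 0.07, edgeR adjusted p 0.103; 0.374% of 7213 genes passed), and 0.28 without control day 5 (adjusted p 0.138).

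**Figure D4:**
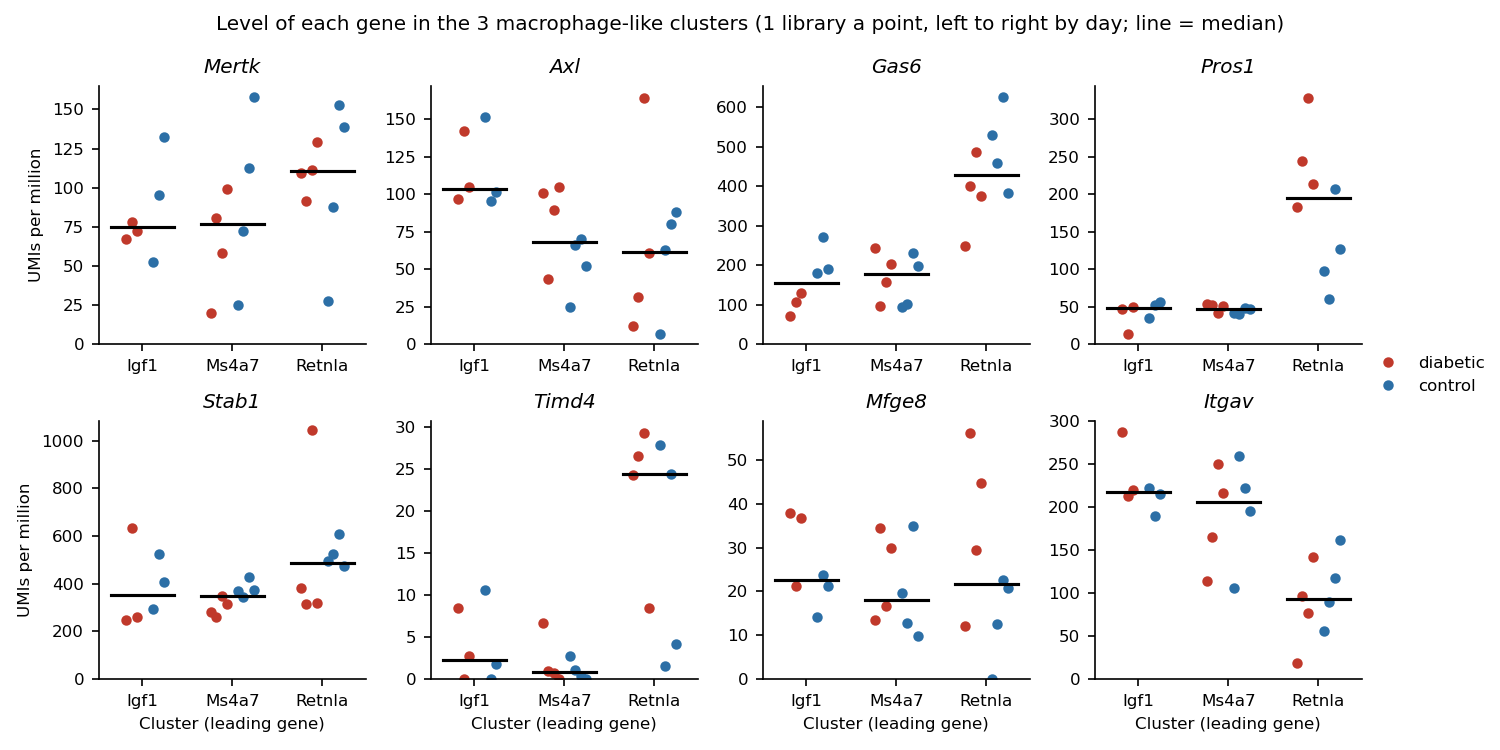
Level of each gene in CPM (vertical axes from 0) in the 3 macrophage-like clusters named by a leading gene; each point is 1 library with at least 20 cells, ordered by day within a color, red diabetic and blue control, and the black line is the median. Gas6 and Pros1 have their highest medians, 429 and 194, in the Retnla cluster, where every red Pros1 point lies above the blue point of the same day.

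Mfge8 was unevenly spread over the dendritic-like cells. Of the 2844 cells of both dendritic-like classes, 69 had a UMI of Cd207 and of Epcam, 2 of the 4 markers listed for Langerhans cells, the dendritic cells of the epidermis. These 69 cells gave 55.7% of the Mfge8 UMIs of both classes, at 4686 CPM against 115 CPM in the other 2775. A UMI of Mfge8 was found in 79.7% of them and in 21.2% of the rest, at median depths of 8635 and 7234 UMIs. This grouping was chosen after its values had been seen and was not made by the clustering, so the cells are described by the 2 genes and not named.

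Such cells numbered 2, 5, 13 and 2 in the control libraries of days 1, 3, 5 and 7, and 0, 27, 8 and 12 in the diabetic ones. In the Cd209a class, the Mfge8 level was 205, 128, 622 and 107 CPM in the control and 24.9, 611, 126 and 174 CPM in the diabetic group. The 2 high values, control day 5 and diabetic day 3, were those of the libraries with the most such cells. Without these cells the diabetic over control ratios of the class moved from 0.122, 4.77, 0.203 and 1.62 to 0.680, 2.65, 0.407 and 1.06. In whole libraries the Mfge8 ratios of 0.930, 2.06, 0.618 and 1.90 became 1.56, 1.58, 0.648 and 1.56.

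**Figure D5:**
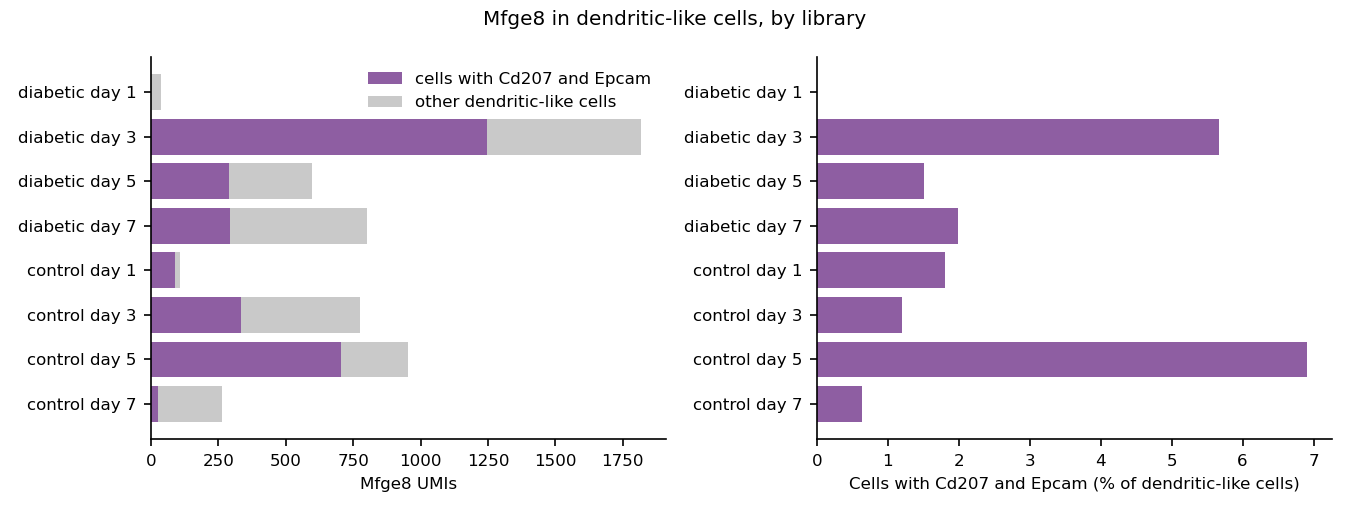
Left, Mfge8 UMIs of both dendritic-like classes in each library (bars from 0), split into cells with a UMI of Cd207 and of Epcam (purple) and the other cells (grey); right, those cells as a percentage of the dendritic-like cells of the library. In both panels the longest purple bars are those of diabetic day 3, with 27 such cells, and control day 5, with 13, and diabetic day 1 has none.

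Of the Timd4 UMIs in the dendritic-like classes, these cells gave 8.0%, at 108 CPM against 38.4 CPM in the other cells, and 14.5% of them had a Timd4 UMI against 7.06% of the rest. In the Cd209a class it stood at 17.1, 32.4, 27.1 and 36.4 CPM in the control and 21.6, 72.2, 53.1 and 42.3 CPM in the diabetic group. The diabetic library was higher on 4 of 4 days, with ratios of 1.27 (0.575 to 3.07), 2.23 (1.70 to 2.96), 1.96 (1.37 to 2.86) and 1.16 (0.875 to 1.56), so that the intervals of days 1 and 7 included 1. Few cells carried it, and 5% of the class held 93.7% of its Timd4 UMIs, with up to 33 in a cell. With the Cd207 and Epcam cells left out, the ratio of day 3 was 1.74 (1.31 to 2.34).

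The wider clearance pathway was read through 7 lists with 94 genes, 86 of them beyond the 8. Between the groups 0 genes of any list passed, in whole libraries or in macrophage-like cells. Of the opsonins tested in whole libraries, 8 of 10 lay below 0, among them C1qb (-0.82, SE 0.33, edgeR adjusted p 0.451), a chain of the complement component that coats dying cells. Lgals3 of the same list lay above 0, at 0.12 (SE 0.19, edgeR adjusted p 0.7835). Of the 13 genes of the sterol programme that handles the lipid of an engulfed cell, 10 lay below 0, among them Apoe (-0.42, SE 0.37, adjusted p 0.635). Of the other lists, 9 of 17 engulfment genes, 9 of 15 find-me and do-not-eat-me genes and 5 of 9 integrins and bridges lay above 0. So did 1 of 5 TAM receptors and ligands and 7 of 19 other receptors for dead cells. Over all genes 49.4% lay above 0. Within macrophage-like cells 7 of 10 opsonins lay above 0, beside 49.1% of all genes, with C1qb at 0.018 (SE 0.12, edgeR adjusted p 0.988). There 8 of 13 sterol genes lay below 0, with Apoe at 0.19 (SE 0.17, adjusted p 0.797). Cd24a, a brake on engulfment on the list of find-me and do-not-eat-me genes, had 1.27 (SE 0.53, adjusted p 0.451) in whole libraries and 0.91 (SE 0.25, adjusted p 0.319) in macrophage-like cells.

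Over the days in whole libraries, 7 genes of the lists rose and 12 fell, read against 3.46% of all genes upwards and 6.88% downwards. The count over all genes went from 1378 to 11 without diabetic day 1, 3 without diabetic day 7 and 1 without control day 1. Of the TAM receptors and ligands 1 of 4 tested rose, Axl. Of 17 other receptors for dead cells 3 fell and 0 rose: Olr1 (-0.38 per day, SE 0.08, edgeR adjusted p 0.0292) and Msr1 (-0.28, SE 0.06), both scavenger receptors, and Cd14 (-0.31, SE 0.06), the co-receptor for endotoxin. Of 9 integrins and their bridges, 3 fell: Itgam (-0.28, SE 0.06) and Itgb2 (-0.15, SE 0.04), the chains of the leukocyte integrin Mac-1, and Thbs1 (-0.42, SE 0.11).

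Of 13 sterol genes 3 rose and 0 fell, the nuclear receptor Pparg (0.23 per day, SE 0.04, edgeR adjusted p 0.0239), its partner Rxra (0.13, SE 0.03) and the cholesterol exporter Abcg1 (0.16, SE 0.03). Of 17 genes of engulfment and corpse processing 2 rose, with Rubcn at 0.29 (SE 0.07), and 3 fell, Rab7, Vav1 and Vav3. Of 10 opsonins 1 fell, C3 (-0.26, SE 0.05), and of 15 find-me and do-not-eat-me genes S1pr1 rose (0.26, SE 0.06) while Cd24a (-0.49, SE 0.10) and P2ry2 (-0.19, SE 0.04) fell. The neutrophil markers, all 10 detected, summed to 27421 CPM on day 1 and 5134 CPM on day 7 in the control and to 30229 and 4784 CPM in the diabetic group, and their part was not tested. Within macrophage-like cells 2 list genes passed over the days, where 0.656% of all 10515 genes did, 0.561% upwards and 0.0951% downwards. Of 13 sterol genes Abcg1 rose (0.24 per day, SE 0.04, edgeR adjusted p 0.0337). Of 15 other receptors for dead cells Msr1 fell (-0.16, SE 0.03, edgeR adjusted p 0.0453). The difference in change per day had 0 list genes past the threshold in either set of sums.

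Across the 65 sums by class and library, each gene's pattern was compared with that of 10115 genes (Pearson's r of log2(CPM + 10), a description, since the sums share libraries and depth). Among the 8, Mertk and Stab1 (r = 0.87), Mertk and Gas6 (0.87) and Gas6 and Stab1 (0.81) were closest, and Timd4 and Mfge8 reached 0.53. The genes most like Mertk were Gdpd1 (0.92), Tmem37 (0.91) and Gdf15 (0.90). Those for Gas6 were Igf1 (0.93), Rnase4 (0.88) and C4b (0.87), and for Stab1 they included Abcc3 (0.95) and Adgre1 (0.93), the last being a macrophage surface antigen and a marker used here.

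Timd4 was most like H2-DMb2 (0.85), Htr7 (0.85) and Flt3 (0.84), of which the first works in MHC class II loading and the last is the dendritic growth factor receptor and a marker used here. Itgav ran with Myo1e (0.86), Acp5 (0.83) and Tmem65 (0.81), and Acp5, the tartrate-resistant acid phosphatase, is an osteoclast marker. The closest genes were Trappc2l (0.79), Mmp14 (0.76) and Laptm4a (0.75) for Axl, Pmp22 (0.78), Vat1 (0.77) and Aldh2 (0.77) for Pros1, and Scin (0.77), Appl1 (0.75) and Ptpn3 (0.74) for Mfge8.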

How the data were processed

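CD45+ cells of 8 libraries, 1 for each group (diabetic, control) and day (1, 3, 5, 7), were analysed. The authors deposited UMI counts for each barcode and gene, whole numbers that had not been normalized. The methods of the study give UMI-tools, STAR and the mouse genome of a stated Ensembl version, with no build named. They give BD Rhapsody as the platform, whereas the record gives 10X Genomics. The submitters' processing notes name fastp 0.20.1 and the build mm9, so the authors' build is uncertain, and coordinates here are those of GRCm38 and apply to the genes, not to the authors' alignment.

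A cell was a barcode with more than 200 genes and less than 20% of its UMIs mitochondrial, and genes of the mitochondrion were removed afterwards. Cells were scaled to 10000 UMIs, log transformed and clustered in scanpy 1.11.5 (2000 variable genes without the 8 genes, values limited to 10 SD, 10 principal components, 30 neighbours, leidenalg 0.10.2 at resolution 0.8). Clusters were named by the marker list with the largest mean log2 fold (20 CPM added), which had to be at least 0.25, with 3 or more markers found in 10% of cells. A cluster that was shallow for its libraries with no marker of the list among its top 10 genes, or that was led by Gm26917 or Malat1 with fewer than 3 such markers, stayed unnamed. The clusters were rebuilt, and class shares may for that reason differ from the study's. Scrublet called 68 of 35158 cells, under the share at which it can be taken to work. Doublets were therefore kept, and the 5% with the highest scores were left out as an alternative. The tables hold no barcode sequences, and 0 cells had identical counts between libraries.

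UMIs were summed per library, or per class and library with at least 20 cells, and divided by all UMIs of those cells (CPM). Intervals are exact at 95%, cover counting error only, and those of a ratio are conditional on the sum of both counts. A ratio was not formed where both counts were at or under 3. Library sums were tested with edgeR 4.0.16 in R 4.3.3 (quasi-likelihood F test, TMM, filterByExpr, Benjamini-Hochberg over all genes, threshold 0.05) for group with day as a block, for the change per day with group as a term, and for the difference in that change. edgeR was tested on simulated data, and the outcome of that check is not given here. DESeq2 1.42.0 and the other alternatives are described at the end. Analyses used scikit-learn 1.9.0, pandas 2.3.3, scipy 1.17.1, matplotlib 3.10.9 and numpy 2.4.6 in Python 3.11.15.

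All 8 genes are named throughout. From the lists, up to 4 genes past the threshold with the smallest adjusted p are named, or else up to 2 with the most UMIs, and the 3 genes most like each of the 8 among those with at least 500 UMIs. Of these, 1 gene is not reported here. The 8 genes, the lists, the markers and the tests were chosen with earlier results of these data known.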

Additional observations from a re-analysis of the deposited data

Results flagged for a closer look

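For 4 of the 8 genes in whole libraries, the diabetic over control ratio pointed one way on one day and the other way on another, with counting intervals on both sides of 1. These intervals cover counting error only, and the share of all genes that did so is not given here. Each value here is the higher ratio divided by the lower one. It was 7.19 for Mertk (1.21 on day 3 against 0.169 on day 5), 4.46 for Pros1 (1.69 on day 1 against 0.379 on day 5), 3.33 for Mfge8 (2.06 on day 3 against 0.618 on day 5) and 1.79 for Axl (1.25 on day 1 against 0.700 on day 3).

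The same was seen within macrophage-like cells for 4 genes. The value was 5.44 for Mfge8 (3.04 on day 3 against 0.558 on day 5), 4.45 for Axl (2.73 on day 1 against 0.613 on day 3), 4.43 for Mertk (2.45 on day 1 against 0.552 on day 5) and 1.67 for Itgav (1.12 on day 5 against 0.672 on day 3). By the share of thinned cells with a UMI, Mfge8 (2.51% against 2.56%) and Itgav (17.2% against 17.8%) were not above the T and NK cell-like level in these cells. That level cannot be taken as background for these 2 genes, and the neutrophil-like shares were lower, at 0.828% and 6.33%. With 1 library for each group and day, none of these 8 differences between days was tested, and 6 of them involve day 5, where the control library stood apart. The day 1 ratios of macrophage-like cells rest on 88 diabetic and 100 control cells, and that of Mertk was 3.92 in the Retnla cluster and 0.804 in the Ms4a7 cluster.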

How the results depend on the processing

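Between the groups, 0 of the 8 genes passed in macrophage-like cells under every alternative run, and in whole libraries under every one but DESeq2, which called 1 (Timd4, log2 1.24, adjusted p 0.0191). Without the day as a replicate block the count was 0 in both sets of sums. In whole libraries, leaving out a day in turn gave 0 genes of the 8 each time, with log2 estimates of 1.09 to 1.43 for Timd4, -1.66 to -0.69 for Mertk, -1.68 to -0.68 for Gas6 and -1.11 to -0.65 for Stab1. Adjusted p ranged from 0.0191 to 0.767 for Timd4 over its alternatives. Pros1 ran from -0.35 to 0.29, above 0 without day 5 (0.29) and without day 7 (0.02). In macrophage-like cells, the estimate of Axl turned below 0 without the highest doublet scores (-0.0033), at resolution 1.6 (-0.20), with cells named singly (-0.015), with the unnamed cells added (-0.034), without day 1 (-0.07) and without day 5 (-0.14), and reached 0.37 without day 3. That of Itgav turned above 0 with at least 500 genes (0.049), with cells named singly (0.066) and without day 3 (0.028), and was -0.28 without day 5.

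The change per day was the least stable result. In whole libraries the count of the 8 genes was 1 in the main fit, where 1378 of all 13332 genes passed (10.3%). It was 5 by DESeq2 (2846 of all genes) and 0 for days 5 and 7 against days 1 and 3 (0 of all genes). With a library left out it was 0 to 4 (1 to 1621 of all genes). It was 3 with RLE factors and 3 without the filter on low counts. For these 2 the count over all genes is not given here, so they cannot be set against a share of all genes. The Mfge8 estimate ran from -0.0017 without diabetic day 1 to 0.27 without diabetic day 3. In macrophage-like cells the count of the 8 was 1 by DESeq2, without the filter on low counts, without a mitochondrial limit, without the highest doublet scores, at resolution 1.6, with the unnamed cells added and with the 8 genes kept among the variable genes (Axl each time). It was 1 with at least 500 genes per cell (Mertk), and 0 to 2 with a library left out (2 without control day 3, Axl and Itgav). Over all genes it ran from 0 to 298, against 69 of 10515 (0.656%) in the main fit, and it is not given here for each alternative. Between the groups in macrophage-like cells 0 to 196 genes passed, the most without the filter on low counts, and 2 to 17 with a day left out. The difference in change per day gave 0 of the 8 under every alternative run, and at most 2 genes in whole libraries and 36 in macrophage-like cells. The cause of these changes was not tested.

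With each cell named singly, the log2 ratio of macrophage-like over neutrophil-like CPM rose from 2.76 to 6.20 for Mertk, from 1.86 to 3.49 for Axl, from 3.15 to 5.28 for Gas6 and from 2.48 to 4.06 for Stab1. Shares of macrophage-like cells with a UMI follow the depth by construction: thinned to 500 and to 2000 UMIs they were 4.35% and 17.5% for Mertk, 3.53% and 13.1% for Axl, 8.63% and 27.1% for Gas6, 3.02% and 10.3% for Pros1, 17.0% and 44.2% for Stab1, 1.24% and 4.23% for Mfge8, and 9.60% and 30.4% for Itgav, with 0.711% at 2000 UMIs for Timd4. The alternatives with the unnamed cells, with the 8 genes kept among the variable genes, by cluster (with and without day 5) and without the Cd207 and Epcam cells were chosen after seeing the data. Depth limits Timd4 most, with 5 to 66 UMIs a library in macrophage-like cells.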
